A study of Mus musculus with 6 samples.

Results

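NF-κB is a family of dimeric transcription factors built from 5 subunit genes, Nfkb1, Nfkb2, Rel, Rela and Relb. In resting cells the dimers are held in the cytoplasm by inhibitory IκB proteins. Bacterial lipopolysaccharide (LPS), sensed by the receptor TLR4, activates the IκB kinase, the IκB protein is degraded, and the freed dimers enter the nucleus. Several of their target genes encode the inhibitors themselves, which gives the pathway a negative feedback loop, and in glia it is a main route from microbial products to cytokine transcription. Here the transcripts of the 5 subunits and of 5 inhibitors (Nfkbia, Nfkbib, Nfkbie, Nfkbiz and Tnfaip3) were described in cultured enteric glial cells (EGCs), which support the neurons of the gut, at rest and after LPS. The 10 genes were taken by symbol from 46603 gene identifiers in the counts, and each matched 1 identifier.

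The cultures were grown from neurospheres, free-floating clusters of neural progenitors, made from the entire intestine of E14.5 C57BL/6J mice, and were then plated in serum-containing medium. The libraries were made from polyadenylated RNA of 3 control cultures without treatment and 3 cultures given LPS at 100 ng/ml for 12 h. The labels did not say whether the cultures of a group came from separate litters or preparations, so p-values measure the spread between these libraries, which may be technical. No purification step followed plating, so these were mixed cultures. In bulk RNA, fewer cells of a type and less RNA per cell cannot be told apart.

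Library totals ran from 18775316 to 23664312 counts. The glial marker Sox10 lay between 73.8 and 100.7 CPM (counts scaled to library size) in the 6 libraries and was not called (edgeR adjusted p = 0.332). Of 8 glial markers 7 were tested and 2 were called lower in LPS, S100b and Cdh19, with log2 values of -1.91 and -0.66 (adjusted p = 0.0238 and 0.0457). The summed level of the 8 glial markers was 370 to 537 CPM. Mesenchymal markers had a higher summed level, of 10477 to 12099 CPM over 5 genes. Of these, Dcn and Pdgfra were called higher in LPS (log2 values of 0.90 and 0.50, edgeR adjusted p = 0.0118 and 0.0114). Col1a1, Col1a2 and Lum were not called (-0.08, -0.10 and -0.73), but blocking on the replicate number called Lum lower (adjusted p = 0.00581). Smooth muscle markers, in contrast, were called lower in LPS for 5 of 5 genes, and their summed level was 2357, 2369 and 2119 CPM in control and 849, 832 and 592 CPM in LPS. Of these marker calls, those of Tagln, Cnn1 and Des held under all 16 alternatives, while S100b, Cdh19, Dcn, Pdgfra, Acta2 and Myh11 lost theirs under some, with adjusted p-values up to 0.163. The part of these shifts in the results for the 10 genes was not tested. Macrophage markers were present in every library and set the libraries numbered 3 apart. All 12 were highest in control replicate 3 among the controls and highest in LPS replicate 3 among the LPS libraries, and their summed level was 3987, 5146 and 12144 CPM in control replicates 1, 2 and 3 and 3982, 5165 and 19658 CPM in LPS replicates 1, 2 and 3. Neuron markers were present too, and in each group their summed level over 5 genes was lowest in replicate 3. It was 374, 368 and 212 CPM in control replicates 1, 2 and 3 and 359, 369 and 235 CPM in LPS replicates 1, 2 and 3. Markers of lymphocytes were near 0, with summed levels of 0.148 to 0.890 CPM over 7 genes, and Cd3e and Cd3g had no count in any library. For Rel and Tnfaip3 the calls are given below with and without the libraries numbered 3.

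The start regions of the members were examined for the sequence to which NF-κB binds, because these genes include known targets of the factor. RefSeq promoter windows (GRCm38.p6) were found for 7 of the 10 genes and not for Nfkb1, Relb and Nfkbiz. The 250 bases before each annotated start were searched on both strands for the 10-base κB consensus, in which overlapping matches were counted separately. A match was found for 5 of the 7 genes, Nfkbia, Nfkbie, Nfkb2, Rel and Tnfaip3, and for neither Rela nor Nfkbib. Counted by window, as some genes have several, 7 of the 10 windows of these genes held a match. Of all 32851 windows, 7.25% held a match, and of the 13884 windows of tested genes, 9.22%. The 3 windows below are shown because their matches lie outside the annotated gene, before the start of 2 IκB genes that rose and of the subunit gene that was not called. They read 5′ to 3′ on the strand of the gene, with the matches in capitals. They lie at chr12:55492648-55492897 (minus strand), chr17:45555450-45555699 (plus strand) and chr11:23770970-23771219 (minus strand).
Nfkbia: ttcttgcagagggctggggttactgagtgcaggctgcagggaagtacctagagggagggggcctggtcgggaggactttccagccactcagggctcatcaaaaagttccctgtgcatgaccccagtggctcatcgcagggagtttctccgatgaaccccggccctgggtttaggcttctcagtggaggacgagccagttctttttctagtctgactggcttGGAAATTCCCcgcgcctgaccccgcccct
Nfkbie: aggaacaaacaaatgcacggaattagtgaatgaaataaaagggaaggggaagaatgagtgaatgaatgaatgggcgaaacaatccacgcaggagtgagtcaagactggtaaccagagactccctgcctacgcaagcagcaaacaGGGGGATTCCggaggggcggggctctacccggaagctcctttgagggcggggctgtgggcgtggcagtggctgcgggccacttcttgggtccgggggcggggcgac
Rel: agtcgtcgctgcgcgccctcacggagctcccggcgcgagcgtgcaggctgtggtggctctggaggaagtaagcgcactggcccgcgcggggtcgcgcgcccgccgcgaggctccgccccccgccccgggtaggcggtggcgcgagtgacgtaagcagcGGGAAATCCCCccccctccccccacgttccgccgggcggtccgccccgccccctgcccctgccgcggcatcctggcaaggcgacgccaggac

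Counted from the annotated start, the match of Nfkbia spans bases -29 to -20 and that of Nfkbie bases -106 to -97. The capitals of Rel hold 2 matches that overlap, from base -92 to base -82. For the other genes with a match only short stretches are given, since their windows reach into transcribed sequence of the GENCODE annotation. Tnfaip3 has matches at bases -125 to -116 and -12 to -3, shown at chr10:19015516-19015545 and chr10:19015411-19015440 (minus strand). Nfkb2, which has 3 annotated starts, has 3 matches before its first start, of which the first and the last are shown at chr19:46304688-46304717 and chr19:46304707-46304736 (plus strand). A further 2 matches lie before its later starts. A match is a description of the sequence, and binding was not measured here.
Tnfaip3, distal: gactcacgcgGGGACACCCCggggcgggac
Tnfaip3, proximal: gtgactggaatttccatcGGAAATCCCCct
Nfkb2, first match: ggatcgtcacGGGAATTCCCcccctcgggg
Nfkb2, last match: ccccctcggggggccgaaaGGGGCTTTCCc

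Next, LPS and control cultures were compared. All 10 members passed the filter on low counts, and 9 were called higher in LPS at an adjusted p under 0.05 by the edgeR quasi-likelihood test, 5 of 5 inhibitors and 4 of 5 subunits. The exception was Rel. None was called lower, and as all 10 fold changes were above 0 the count of lower genes was also 0 at an unadjusted p under 0.05 and with DESeq2. Of all 15226 tested genes, 9.09% were called higher and 6.71% lower. In 9 of the 10 members every LPS library lay above every control library, against 19.3% of all tested genes. The median log2 fold change was 2.52 over the inhibitors and 1.68 over the subunits, against -0.02 over all tested genes. With the replicate number as a block, the same test called 9 members higher and 0 lower, against 15.4% and 14.9% of all genes.

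**Figure D1:**
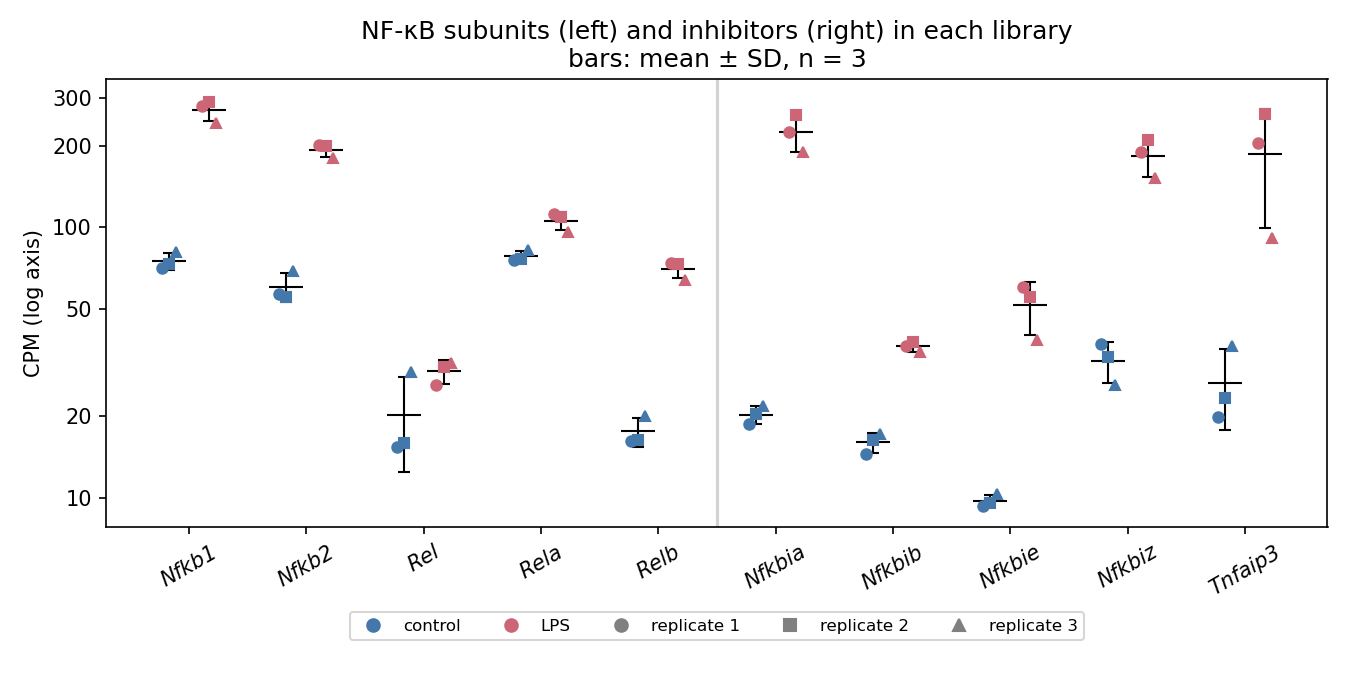
Level of each subunit and inhibitor gene in CPM, on a log axis, in the 3 control (blue) and 3 LPS (red) libraries, with marker shapes for the replicate number and bars for the mean ± SD. The LPS points lie above the control points for every gene but Rel, where control replicate 3 (29.2 CPM) lies above LPS replicate 1 (26.0 CPM).

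The inhibitors were examined first. Nfkbia (ENSMUSG00000021025, GRCm38 chromosome 12, 55489410 to 55492647, minus strand) encodes IκBα, the inhibitor that is degraded first after LPS and is resynthesised as a direct NF-κB target. It was at 18.7, 20.4 and 21.8 CPM in control replicates 1, 2 and 3 and at 225, 261 and 189.5 CPM in LPS replicates 1, 2 and 3. The groups were far apart, and the lowest LPS library still exceeded the highest control. The means were 20.3 ± 1.55 and 225 ± 35.6 CPM (SD, n = 3 each). On the log2 scale the fold change was 3.47 (SE 0.15, edgeR adjusted p = 0.000217). This was the largest change among the 10 members, at percentile 98.4 of all tested genes. It kept its call under all 16 alternatives, with adjusted p-values up to 0.00508.

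The other IκB proteins of the cytoplasm rose less. Nfkbie (ENSMUSG00000023947, chromosome 17, 45555703 to 45563169, plus strand) encodes IκBε, an inducible inhibitor. It went from 9.36, 9.56 and 10.3 CPM in the controls to 60.4, 55.4 and 38.5 CPM in LPS, a log2 change of 2.40 (SE 0.19, edgeR adjusted p = 0.00157). The controls lay close together, while LPS replicate 3 was below the other LPS libraries. Nfkbib (ENSMUSG00000030595, chromosome 7, 28758251 to 28767512, minus strand) encodes IκBβ, which is released more slowly than IκBα. It was at 14.49, 16.3 and 17.3 CPM in control and 36.4, 37.8 and 34.6 CPM in LPS, a log2 change of 1.18 (SE 0.10, edgeR adjusted p = 0.00198), the smallest of the inhibitors. Both genes were called under all 16 alternatives.

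Nfkbiz (ENSMUSG00000035356, chromosome 16, 55811375 to 55838899, minus strand) encodes IκBζ, a nuclear IκB-like protein that acts with p50 on secondary response genes such as Il6. It was at 36.9, 33.2 and 26.1 CPM in control and at 189, 210 and 151 CPM in LPS, a log2 change of 2.52 (SE 0.18, edgeR adjusted p = 0.00124). It was the 1 member that was lowest, not highest, in control replicate 3. Because it was also lower in LPS replicate 3, its rise was similar in the pairs of equal number, at 5.12-, 6.33- and 5.81-fold, and it was called under all 16 alternatives.

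Tnfaip3 (ENSMUSG00000019850, chromosome 10, 19000910 to 19015657, minus strand) encodes A20, a ubiquitin-editing enzyme that shuts down signalling upstream of the IκB kinase. It was at 19.9, 23.3 and 36.5 CPM in control and at 205, 262 and 91.5 CPM in LPS, a log2 change of 2.81 (SE 0.45, edgeR adjusted p = 0.0146). The groups did not overlap, but the libraries numbered 3 were the nearest to each other. Between libraries of equal number the rise was 10.3-, 11.2- and 2.50-fold for numbers 1, 2 and 3. Its call was lost without control replicate 1 (adjusted p = 0.0697), control replicate 2 (0.0856), LPS replicate 1 (0.0540) or the second LPS library (0.0527). Over its 16 alternatives the adjusted p ran from 7.2e-09 to 0.0856. Without LPS replicate 3 it was 0.00264, and without both libraries numbered 3 it was 8.95e-06, with a log2 change of 3.46.

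Among the subunits, the precursors and RelB formed a group with similar changes. Nfkb1 (ENSMUSG00000028163, chromosome 3, 135584655 to 135691547, minus strand) encodes p105, the precursor of the p50 subunit. It rose from 70.8, 73.1 and 81.2 CPM in control to 280.4, 291 and 243 CPM in LPS, a log2 change of 1.86 (SE 0.10, edgeR adjusted p = 0.00044). Nfkb2 (ENSMUSG00000025225, chromosome 19, 46304320 to 46312385, plus strand) encodes p100, which restrains RelB until it is processed to p52 in the non-canonical pathway. It rose from 56.7, 55.5 and 68.9 CPM to 201, 199 and 179.5 CPM, a log2 change of 1.68 (SE 0.11, edgeR adjusted p = 0.000878). Relb (ENSMUSG00000002983, chromosome 7, 19606217 to 19629438, minus strand), the partner of p52, rose from 16.3, 16.4 and 20.1 CPM to 73.8, 72.9 and 64.1 CPM, a log2 change of 1.996 (SE 0.12, edgeR adjusted p = 0.000631). In each of these genes the LPS libraries were separated from the controls by a wide gap, and all 16 alternatives kept the calls.

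Rela (ENSMUSG00000024927, chromosome 19, 5637483 to 5648130, plus strand) encodes p65, the main transactivating subunit of the canonical pathway. It was at 76.0, 76.4 and 82.2 CPM in control and 112, 109 and 96.2 CPM in LPS, a log2 change of 0.44 (SE 0.08, edgeR adjusted p = 0.0246). The groups did not overlap. The log2 value was the smallest of the 10 members with all 6 libraries, but that of Rel was smaller when either of the first 2 control libraries or the third LPS library was left out. The call was lost without control replicate 1 (adjusted p = 0.105), control replicate 2 (0.121), LPS replicate 1 (0.0894) or the second LPS library (0.101), and also when libraries were scaled by their upper quartile (0.0665) or by total counts (0.0844). Over its 16 alternatives the adjusted p ran from 0.000346 to 0.121, the lowest without both libraries numbered 3.

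Rel (ENSMUSG00000020275, chromosome 11, 23736847 to 23770970, minus strand) encodes c-Rel, a subunit best known from lymphoid and myeloid cells. It was at 15.5, 15.98 and 29.2 CPM in control and at 26.0, 30.4 and 31.6 CPM in LPS. Control replicate 3 lay within the LPS range, while the other controls lay below it. The log2 change of 0.54 (SE 0.27) was not called (edgeR adjusted p = 0.233), nor was it with the replicate block (0.59, adjusted p = 0.0693). Without control replicate 3 it was 0.92 and called (adjusted p = 0.0141), as it was without both libraries numbered 3 (0.87, adjusted p = 0.000861). In the other 14 alternatives it was not called, and the adjusted p reached 0.493.

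**Figure D2:**
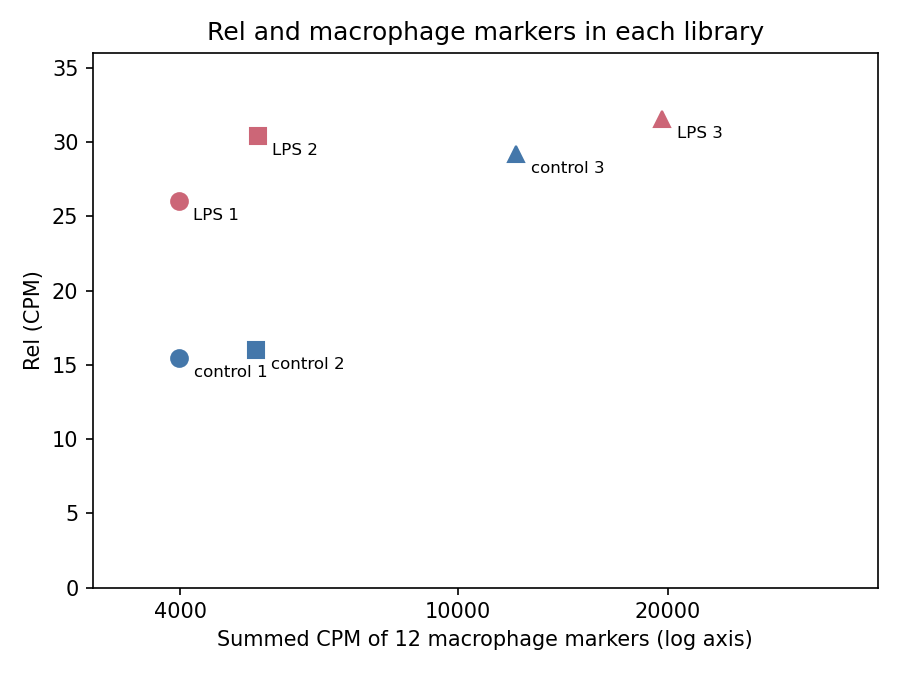
Rel in CPM against the summed CPM of 12 macrophage markers (log axis) in each library. Control replicate 3, with 12144 CPM of macrophage markers, has a Rel level of 29.2 CPM, against 15.5 and 15.98 CPM in the control libraries with 3987 and 5146 CPM.

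Rel was highest in the library of each group that had the most macrophage marker RNA. The summed macrophage level was 3987 CPM in control and 3982 CPM in LPS for replicate 1, and 5146 and 5165 CPM for replicate 2. Most of this sum was Lyz2, and single markers moved in opposite directions within the pairs, for replicate 1 Adgre1 from 159 to 952 CPM and Mrc1 from 197 to 9.29 CPM, so equal sums do not show equal macrophage RNA. Of the 12 markers, 1 was called by group alone, Adgre1 (higher, edgeR adjusted p = 0.0452). That call was kept in 12 of 16 alternatives, with adjusted p-values up to 0.169. Blocking on the replicate number gave 4 higher and 4 lower calls. Within these pairs Rel was 1.68- and 1.90-fold higher in LPS. Within the pair numbered 3, where the summed macrophage level was 12144 and 19658 CPM, the ratio was 1.08. The part of macrophage RNA in the level of Rel was not tested. The order of the libraries was also compared over all members. In control, 9 of 10 members were highest in replicate 3, all but Nfkbiz, and in LPS 9 of 10 were lowest in replicate 3, all but Rel. Accordingly the rise between libraries numbered 3 was smaller than in both other pairs for 9 of the 10 genes, and Nfkbiz was the exception. Neither the order nor the size of the rise was counted over all tested genes, so neither is shown to be particular to the members.

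To compare the members with each other, ratios within a library were used, which do not depend on the scaling of the libraries. The other 4 subunits were set against Rela and the other 4 inhibitors against Nfkbib, 8 ratios in all. With 3 libraries against 3 the exact permutation test cannot give a p below 0.1, so no ratio could pass 0.05. The log2 ratio of Relb to Rela went from -2.16 ± 0.11 to -0.59 ± 0.01, that of Nfkb1 from -0.06 ± 0.04 to 1.36 ± 0.05 and that of Nfkb2 from -0.38 ± 0.11 to 0.87 ± 0.03 (SD, n = 3 each; exact two-sided permutation p = 0.1 for each, adjusted over 8 ratios 0.114). These 3 ratios were higher in all LPS libraries than in all controls. The ratio of Rel to Rela overlapped between groups, at -2.02 ± 0.45 and -1.85 ± 0.25 (SD, n = 3 each; exact permutation p = 0.6). Its difference of 0.16 depended on single libraries, at 0.42 without control replicate 3 and 0.02 without control replicate 1. The log2 ratio of Nfkbia to Nfkbib went from 0.34 ± 0.02 to 2.62 ± 0.17, a rise of 2.28 and the largest of the 8, and the ratios of Nfkbie, Nfkbiz and Tnfaip3 to Nfkbib rose by 1.19, 1.34 and 1.54, without overlap between groups (exact permutation p = 0.1 for each, adjusted 0.114). Leaving out any library changed the direction of none of the 8.

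Levels of different genes were compared per kilobase of exon, counted over all annotated transcripts of a gene. These lengths were 12061 bases for Nfkb1, 4584 for Nfkb2 and 3072 for Rela, and the order below depends on them. In control, Rela stood first at 25.5 ± 1.14 CPM per kb (SD, n = 3), followed by Nfkb2 (13.2 ± 1.62) and Nfkbia (12.6 ± 0.96), whose ranges overlapped. Nfkbib (7.39 ± 0.65), Nfkbiz (6.39 ± 1.10) and Nfkb1 (6.22 ± 0.45) formed a second group, in which neighbours overlapped. Relb (4.53 ± 0.56), Tnfaip3 (3.68 ± 1.21), Nfkbie (3.20 ± 0.17) and Rel (2.71 ± 1.04) were lowest, and again neighbours overlapped.

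In LPS the order per kilobase changed. Nfkbia stood first at 140 ± 22.1 CPM per kb (SD, n = 3), clear of all others. Nfkb2 (42.1 ± 2.58), Nfkbiz (36.6 ± 5.91), Rela (34.4 ± 2.73), Tnfaip3 (25.8 ± 12.0) and Nfkb1 (22.5 ± 2.08) followed, each with a range that overlapped that of the gene above it except Nfkb2. Relb (18.1 ± 1.39), Nfkbie (16.9 ± 3.78) and Nfkbib (16.7 ± 0.74) overlapped each other, and Rel (3.93 ± 0.39) was lowest, below the range of Nfkbib.

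As a share of the summed per-kilobase level of the 5 subunits, Rela made up 49.0 ± 2.21% in control and 28.4 ± 0.43% in LPS (SD, n = 3 each). Nfkb2 went from 25.2 ± 0.80 to 34.8 ± 0.35%, Nfkb1 from 12.0 ± 0.29 to 18.6 ± 0.53%, Relb from 8.69 ± 0.27 to 14.9 ± 0.14% and Rel from 5.11 ± 1.45 to 3.27 ± 0.51%. In LPS Nfkb2 had taken the place of Rela as the subunit gene with the most RNA per kilobase in every library. Without division by length the order differed. Nfkb1 then had the highest mean in LPS, at 272 CPM against 193 for Nfkb2 and 106 for Rela. In control, Rela and Nfkb1 had means of 78.2 and 75.0 CPM. Among the 4 IκB genes, Nfkbia made up 42.6 ± 2.28% of the per-kilobase sum in control and 66.6 ± 1.16% in LPS, and Nfkbib went from 24.9 ± 1.61 to 8.05 ± 0.90% although its own level had risen. These shares are descriptions and were not tested.

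**Figure D3:**
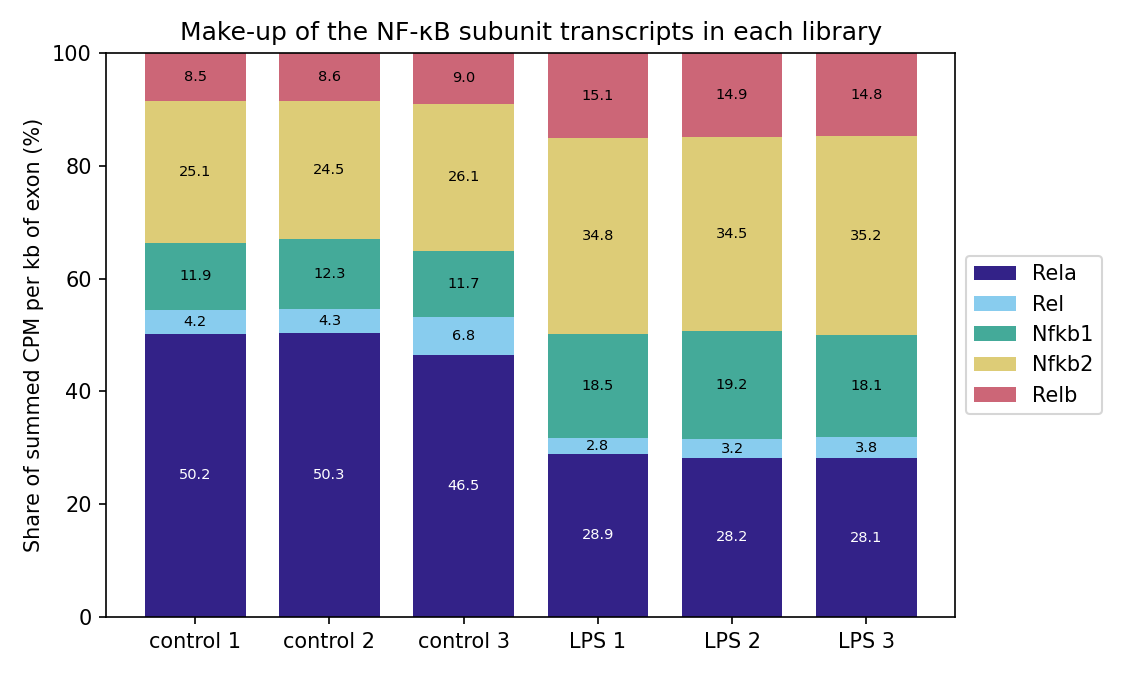
Share of each of the 5 subunit genes in their summed CPM per kilobase of exon, in percent, for each library. Rela makes up 46.5 to 50.3% in the controls and 28.1 to 28.9% in the LPS libraries, while the shares of Nfkb2, Nfkb1 and Relb are higher in each LPS library than in each control.

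The other genes of the pathway were then counted over 36 genes, all of which passed the filter. By the edgeR quasi-likelihood test 11 were called higher and 1 lower, against 9.09% and 6.71% of all tested genes, and 24 were not called. Their median log2 fold change was 0.21. The fit with the replicate number as a block made 15 higher calls and 1 lower, Chuk, Birc2, Rnf11 and Nfkbid in addition (adjusted p = 0.0329, 0.0292, 0.0456 and 0.0262), against 15.4% and 14.9% of all tested genes in that fit. The number called higher was 6 without control replicate 2, a fit in which 379 of all 15564 tested genes were called higher. It was 7 without control replicate 1, LPS replicate 1 or LPS replicate 2, against 470 of 15531, 619 of 15554 and 523 of 15546 genes. Without both libraries numbered 3 it was 20, against 3498 of 15466 genes.

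The other genes are given by step of the pathway, without a test between steps. The first step, with 9 genes, holds the IκB kinase complex, the related kinases Ikbke and Tbk1, and Map3k7 with Tab1, Tab2 and Tab3. Of these, 3 were called higher, and Map3k7 and the Tab genes were not called. Ikbke, an IκB kinase relative that also drives interferon responses, rose from 28.0, 27.8 and 41.6 CPM in control to 160, 171 and 347 CPM in LPS, a log2 change of 2.80 (SE 0.37, edgeR adjusted p = 0.00839). Its adjusted p was 0.0578 without control replicate 2, the 1 alternative that lost the call. Ikbkb and Tbk1 changed by 0.49 and 0.66 on the log2 scale (adjusted p = 0.0165 and 0.0412), both lost under some alternatives. The scaffold Ikbkg (0.28) and the kinase Chuk (0.26) were not called with the group alone (adjusted p = 0.164 and 0.160).

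In the non-canonical arm 3 of 5 genes were called. Birc3, a ubiquitin ligase that with Traf2 and Traf3 keeps the kinase NIK low, rose from 11.6, 11.9 and 15.1 CPM to 102, 123 and 105 CPM, a log2 change of 3.09 (SE 0.15, edgeR adjusted p = 0.00026). The controls and the LPS libraries were again separated by a wide gap. Traf2 and Traf3 rose by 0.95 and 0.91 on the log2 scale (adjusted p = 0.00185 and 0.00614). Map3k14, which encodes NIK, had a log2 change of 0.21 and was not called (adjusted p = 0.675).

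Among the 9 genes of A20 partners and deubiquitinases, 3 were called higher. Tnip1, whose product ABIN-1 binds A20, rose from 42.6, 42.3 and 45.1 CPM to 306, 312 and 251 CPM (log2 fold change 2.74, SE 0.11, edgeR adjusted p = 0.000183). Its relative Tnip3 was nearly undetected at rest, at 0.339, 0.664 and 1.69 CPM, and reached 36.9, 48.2 and 71.7 CPM in LPS (log2 fold change 5.84, SE 0.60, adjusted p = 0.0036). Without control replicate 3 its log2 value was 6.71. The deubiquitinase Cyld rose by 0.35 (adjusted p = 0.0199) but was called in 9 of 16 alternatives, with an adjusted p up to 0.108, and the third relative, Tnip2, had a value of 0.21 that was not called (adjusted p = 0.578). A20 itself is given above under Tnfaip3, with a log2 change of 2.81.

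Bcl3, a nuclear IκB-like protein that binds p50 and p52 homodimers, rose from 13.2, 14.4 and 18.4 CPM to 65.3, 59.3 and 50.1 CPM (log2 fold change 1.93, SE 0.17, edgeR adjusted p = 0.00227). It was the 1 gene called of 4 in its group. Of the linear ubiquitin ligase, Rnf31 was called (0.95, adjusted p = 0.0312; 11 of 16 alternatives, up to 0.130) while Rbck1 and Sharpin were each at 0.03 and were not. None of the 4 genes of the ligase that marks IκB proteins for degradation was called by edgeR, and the count with the replicate block was also 0. Pdlim2, a nuclear ubiquitin ligase that ends p65 activity, was the 1 gene called lower. It went from 47.7, 47.1 and 27.9 CPM to 21.8, 16.8 and 21.2 CPM, a log2 change of -1.04 (SE 0.24, adjusted p = 0.0379), and the call was lost without any library but control replicate 3 and with limma-voom.

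**Figure D4:**
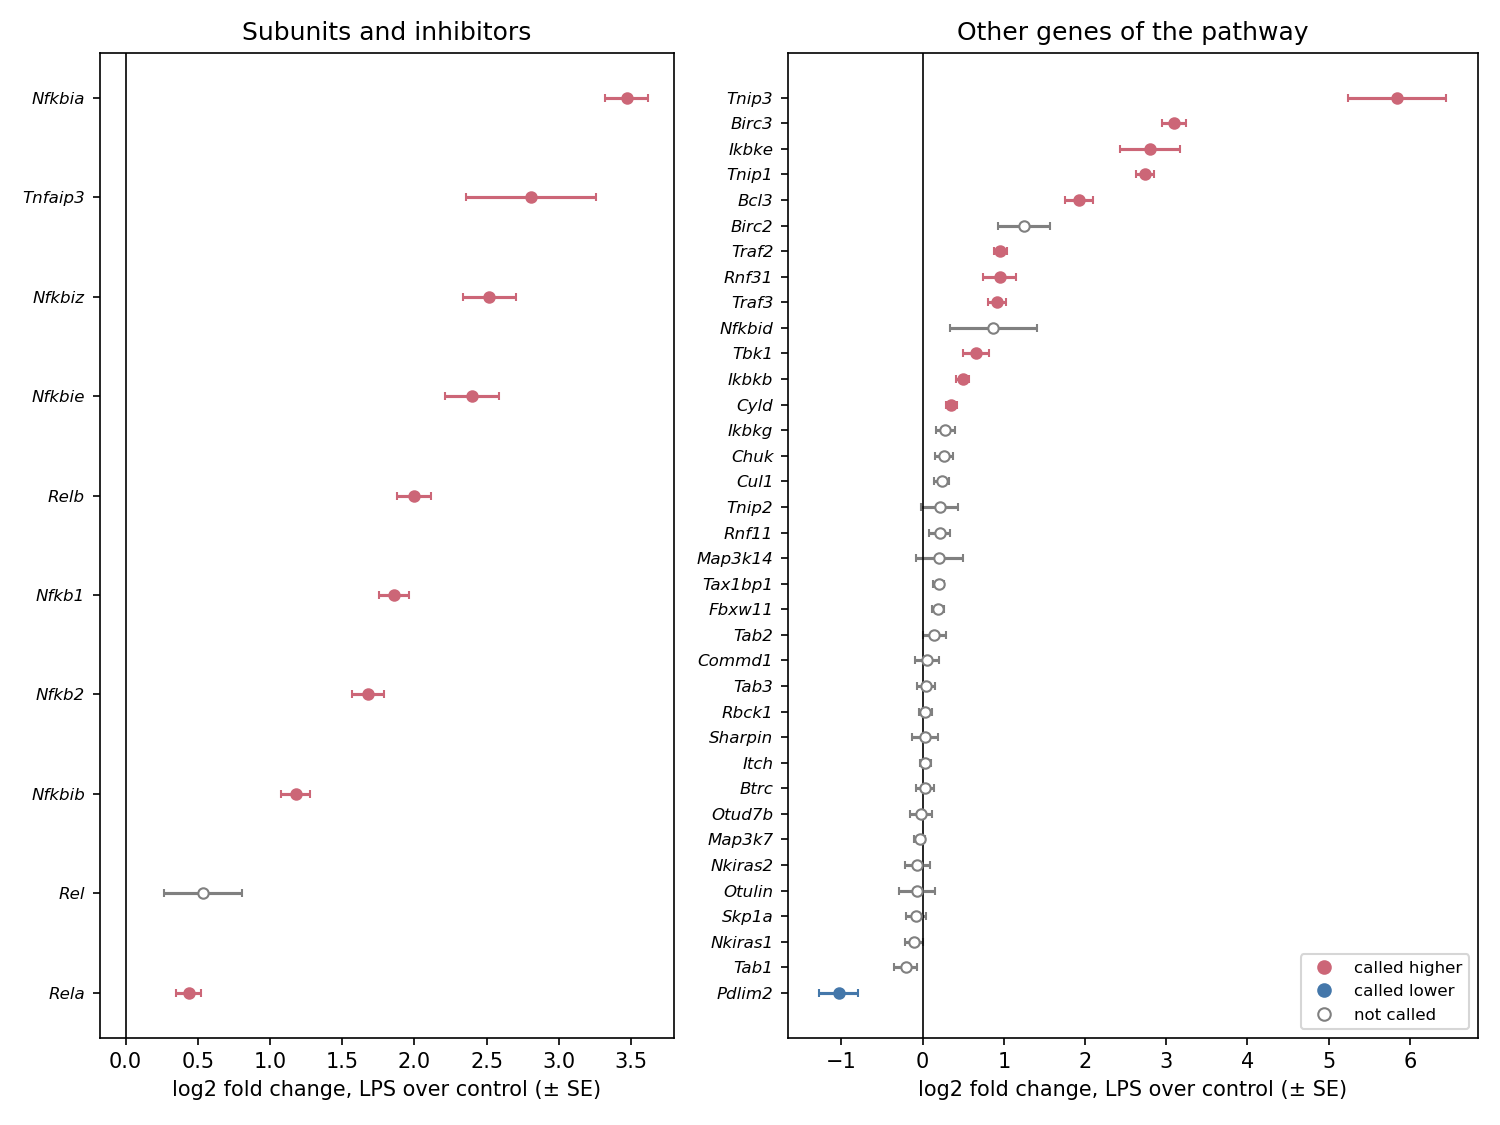
Log2 fold change of LPS over control (± SE, edgeR) of the 10 members on the left and of 36 other pathway genes on the right, with filled points for genes called at an adjusted p under 0.05. The members' values lie between 0.44 and 3.47, all above 0, while those of the other pathway genes run from -1.04 (Pdlim2) to 5.84 (Tnip3) with a median of 0.21.

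The genes whose log2 CPM profile over the 6 libraries lay nearest to 9 of the members were listed, by the root mean square difference after centring each gene on its mean. Slc39a14, a zinc and iron transporter, was nearest to both Relb (0.042) and Nfkb1 (0.061), and Slc11a2 was nearest to Nfkb2 (0.052). Icam1, a leukocyte adhesion molecule, was nearest to Nfkbiz (0.120) and Gpr35 to Tnfaip3 (0.143). Smurf1 was nearest to Rela (0.018) and Sbno2 to Rel (0.070). The nearest genes of Nfkbia and Nfkbib, A430093F15Rik (0.159) and Gm10425 (0.067), had mean levels of at most 1.19 CPM, where the prior count compresses the profile. Between members the closest pair was Nfkb1 and Relb (0.086), with 1 gene nearer to Nfkb1 and 4 nearer to Relb. Rel and Rela were each other's nearest member at 0.307, with 888 genes nearer to Rel and 5794 nearer to Rela, and the members farthest from any other were Tnfaip3 (0.402) and Nfkbia (0.515).

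The calls are shown setting by setting, since single libraries decided some of them. The 7 members other than Rel, Rela and Tnfaip3 were called under all 16 alternatives, with adjusted p-values up to 0.0220.

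**Figure D5:**
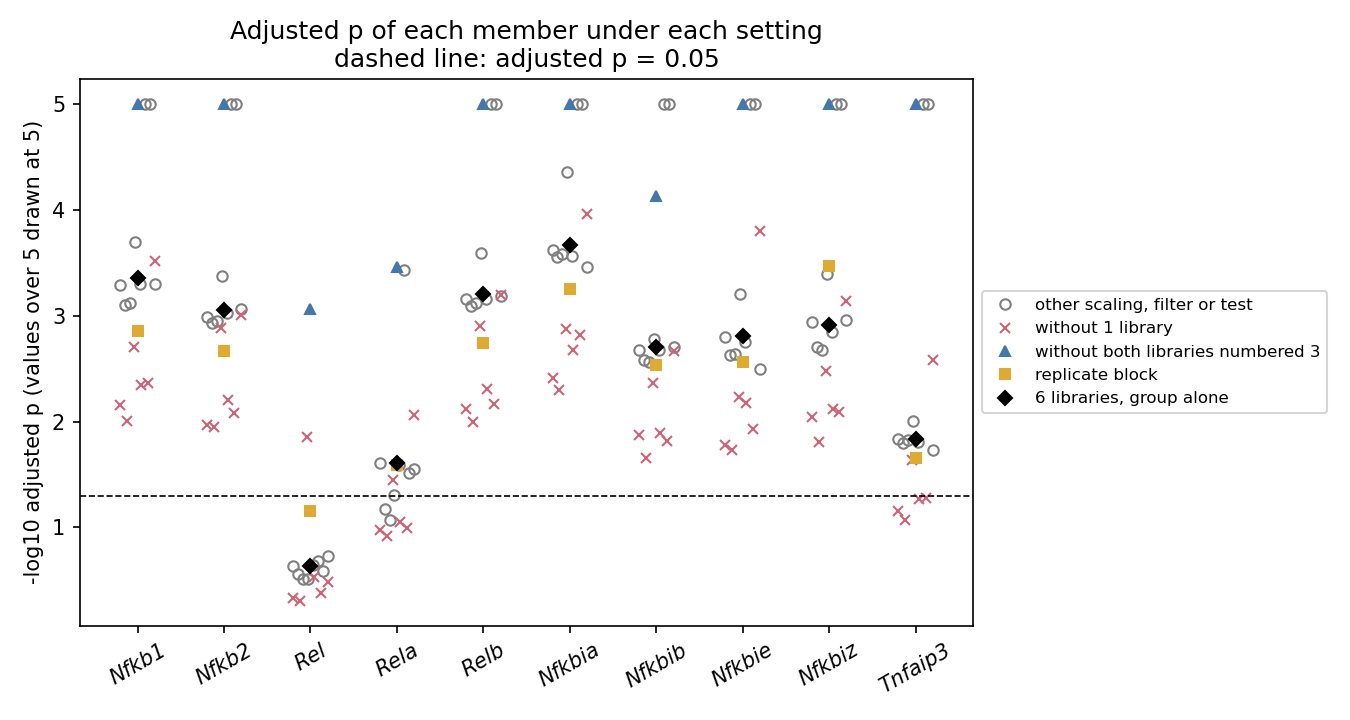
Adjusted p of each member as -log10, with 1 point per setting, values over 5 drawn at 5 and a dashed line at 0.05. Points of Nfkb1, Nfkb2, Relb, Nfkbia, Nfkbib, Nfkbie and Nfkbiz all lie above the line, while Rela and Tnfaip3 cross it in some fits and Rel lies above it without control replicate 3 and without both libraries numbered 3.

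Counts could be shared between genes at some of these loci. Of all 50-base words in the annotated transcripts, 0.650% of Relb, 0.370% of Nfkb1 and 0.122% of Rel occurred in another gene, and 0% in the other members. Exons of Nfkb2 overlap Psd on the opposite strand over 299 bases (6.52% of its exon bases) and AC114539.1 over 531 bases, and those of Nfkbib overlap Ccer2 over 314 bases and Sirt2 over 42 bases, also on the opposite strand. The kit keeps strand, but the strand setting of the counting was not given in the sources used here, so reads in these stretches are uncertain. Psd was lower in LPS, at 194 to 265 counts against 294 to 655 in control, and Ccer2 had at most 2 counts in a library. Sirt2 was more abundant than Nfkbib, at 1860 to 2939 counts against 342 to 737.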

How the data were processed

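Raw gene counts were deposited. Per the labels and the methods of the study, the authors made these counts by trimming (cutadapt 1.15), removal of contaminants (Bowtie2 2.3.3.1), alignment to GRCm38 (STAR 2.5.2b) and counting (featureCounts 1.5.3). Strand and multi-mapping settings were not given in the sources used here. The table of all libraries was identical to the single files and not used. Genes were filtered by the filterByExpr function (at least 10 counts, and 15 in total), leaving 15226, and scaled with TMM factors (0.917 to 1.08). CPM are on these library sizes. LPS was tested against control by quasi-likelihood in edgeR 4.0.16 under R 4.3.3, group as the single term, Benjamini-Hochberg adjusted over all tested genes, and the SE is the absolute log2 fold change over the square root of F. The test was checked on simulated counts. Profiles used log2 CPM with a prior count of 2. Exon lengths and coordinates came from GENCODE M21 (GRCm38), promoters from RefSeq (GRCm38.p6). At 18775316 to 23664312 counts per library, 3 counts correspond to 0.124 to 0.167 CPM.

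The members and lists were chosen with earlier results of these data known. Named were all 10 members, pathway genes called with an absolute log2 fold change of at least 1, and the nearest profiles (that of Nfkbie is not reported here); other pathway genes are examples chosen after their values were seen. Deviations from the group means correlated between control and LPS libraries of equal number (r = 0.513, 0.334 and 0.613 over 15226 genes). Libraries of unequal number were not compared in this way, and the deviations of 3 libraries sum to 0. These values therefore do not show that the numbers mark pairs. The replicate block and the comparisons within pairs take equal numbers as pairs without such support. Alternatives were other scaling (upper quartile, relative log expression, total counts), other filters, DESeq2 1.42.0, the edgeR exact test, limma-voom (limma 3.58.1), the replicate block, each library left out and, added after seeing the data, both libraries numbered 3 left out.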

Additional observations from a re-analysis of the deposited data

How the results depend on the processing

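Of 160 values of the members' log2 fold changes under the 16 alternatives, none changed sign, 10 lost the call of Rela or Tnfaip3 and 2 gained a call for Rel. From 7 to 10 members were called higher in the fits that left out libraries, and 8 after upper-quartile or total-count scaling, where Rela was lost. The replicate block changed no call of a member. Of the 36 other pathway genes, 6 to 20 were called higher and 0 to 2 lower in the fits that left out libraries, and 0 lower with limma-voom, against 11 and 1 with all 6 libraries. Over all genes, from 379 to 3498 were called higher and from 112 to 3159 lower when libraries were left out, against 1384 and 1022, with the lowest counts without control replicate 2 and the highest without both libraries numbered 3. DESeq2 called 2079 higher and 1673 lower, and the replicate block 2343 and 2273. Upper-quartile scaling gave 1050 higher and 1589 lower and total-count scaling 986 and 2054, as they moved the log2 median over all genes from -0.02 to -0.12 and -0.18; with either scaling every member stayed above that median. The cause of these differences was not tested. The differences in log2 ratio between members kept their sign throughout. With pairs of equal number their exact sign-flip p cannot go below 0.25, and for Rel to Rela it was 0.5 (difference 0.16).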

Other observations

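Some pathway genes outside the 10 members had the opposite order within the LPS libraries. Ikbke (160, 171 and 347 CPM in LPS replicates 1, 2 and 3), Tnip3 (36.9, 48.2 and 71.7 CPM) and Rnf31 (32.9, 33.2 and 51.8 CPM) were highest in LPS replicate 3, in which 9 of the 10 members were lowest and all 12 macrophage markers were highest. Chuk (70.8, 75.8 and 87.1 CPM) and Tab2 (153, 166 and 183 CPM), not called by group alone, were highest there too. Others, such as Tnip1 and Bcl3, were lowest there. Birc2, which encodes a ubiquitin ligase related to Birc3, was at 80.0, 83.2 and 35.8 CPM in LPS against 30.6, 27.0 and 26.0 CPM in control, without overlap, and was not called by group alone (log2 fold change 1.25, edgeR adjusted p = 0.0522) but was with the replicate block (1.16, adjusted p = 0.0292). These genes were chosen after their values were seen, and the part of macrophage RNA in their levels was not tested.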
